A study of Sus scrofa with 32 samples.

Results

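Cell junction genes were examined in testis RNA of 32 pigs. The set was every pig gene symbol that begins with CLDN, TJP, GJA, GJB, GJC, CTNN, JAM, NECTIN or CGN, or with CDH and a digit, together with OCLN and F11R and without CDH5, the cadherin of endothelium. Of the 25322 genes in the count files 11804 had a symbol, and 60 of these symbols met the rule. At least 10 counts over all pigs were found for 48 of the 60, and these are the members described here. The other 12 (CDH9, CLDN14, CLDN16, CLDN17, CLDN22, CLDN25, CLDN7, CLDN8, GJB5, GJC3, NECTIN1 and NECTIN4) had fewer. A further 18 symbols of the rule, among them CLDN1, CLDN2, CLDN3, CLDN5 and CGNL1, had no matching identifier and were not analysed here. The name rule also takes in genes that only resemble junction genes by name: CTNNBL1 codes for a protein of the spliceosome, and CLDND1 and CLDND2 for claudin-domain proteins.

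In the seminiferous tubule, neighbouring Sertoli cells are sealed to each other by the blood-testis barrier, which combines tight junctions, gap junctions, cadherin-based adherens junctions and desmosomes. Tight junctions consist of claudins, occludin and junctional adhesion molecules that are tied to actin by scaffold proteins such as ZO-1 (TJP1). Claudin-11 (CLDN11) is the claudin for which the Sertoli cell barrier is best known, and connexin 43 (GJA1) is the main gap junction protein of Sertoli cells. Elongating spermatids are held by the Sertoli cell at another contact, the apical ectoplasmic specialization, where nectin-3 of the spermatid binds a nectin of the Sertoli cell.

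The pigs were males of a Danish cross between Duroc and Landrace/Yorkshire, and testis tissue was sequenced from each. The labels sort 31 pigs into High AS and Low AS, where AS stands for androstenone and skatole, the compounds of boar taint, and give the diet of the last 3 days before slaughter as control or with 15% chicory. The groups were 10 High AS pigs on control diet (androstenone 0.67 to 7.77 mg/kg, median 1.63), 7 High AS pigs on chicory (1.12 to 5.9 mg/kg, median 1.94), 7 Low AS pigs on control diet (0 to 1.04 mg/kg, median 0.64) and 7 Low AS pigs on chicory (0 to 1.07 mg/kg, median 0.52). The last pig, on chicory, had no AS group. It enters only descriptions, the correlations with cell markers and an alternative of the diet comparison. The 32 pigs came from 14 sows, and 7 sows had both High AS and Low AS offspring, so some pigs are litter mates and p-values that treat pigs as independent do not account for this. Ages were not used here.

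Library names in the labels divide the libraries into 8 that carry a serial number, called numbered here, and 24 that do not, called plain. Counts in genes ranged from 10585625 to 20349500 in numbered libraries and from 1855174 to 5993637 in plain ones. The sets were uneven over the groups, with 3 numbered libraries among High AS control pigs, 3 among High AS chicory pigs, 2 among Low AS control pigs and 0 among Low AS chicory pigs, which is why each model has a term for library set. Library names also end in a lane code. All 24 plain libraries have code 6, and of the numbered ones 4 have code 6 and 4 have code 7, the latter all from High AS pigs, so that within the numbered set lane and AS cannot be fully told apart. The first index of the numbered libraries was shared by all of them and by no plain library. Defining markers of the labelled tissue were present: Sertoli cell SOX9 and WT1 had medians of 35.4 and 32.1 CPM (counts scaled to library size), Leydig cell CYP17A1 had 818 CPM and the spermatid gene PRM1 had 11200 CPM. Low AS chicory replicate 1 stood apart, with a sum of 3590 CPM over 14 elongating spermatid markers where the next lowest pig had 14000 CPM. Its library was also the smallest, with 1855174 counts in genes and the fewest genes with reads, 14999. It had the largest share of reads given to no gene, 50.7%.

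Of the 48 members 17 had a median of at least 10 CPM and are called main members. Results of 16 of them are reported by name, and counts over members include all. The 16 are the tight junction genes CLDN11, TJP1, F11R and JAM3, the nectin NECTIN3, the cadherins CDH2 and CDH11 with the catenins CTNNB1, CTNNA1, CTNNA2 and CTNND1, the connexins GJA1 and GJC1, and the 3 look-alikes CLDND1, CLDND2 and CTNNBL1. CPM is a share of a library's reads and grows with transcript length. No transcript lengths were at hand, so the levels below rank pigs within a gene and not genes against each other. All 17 main members had reads in all 32 pigs.

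**Figure D1:**
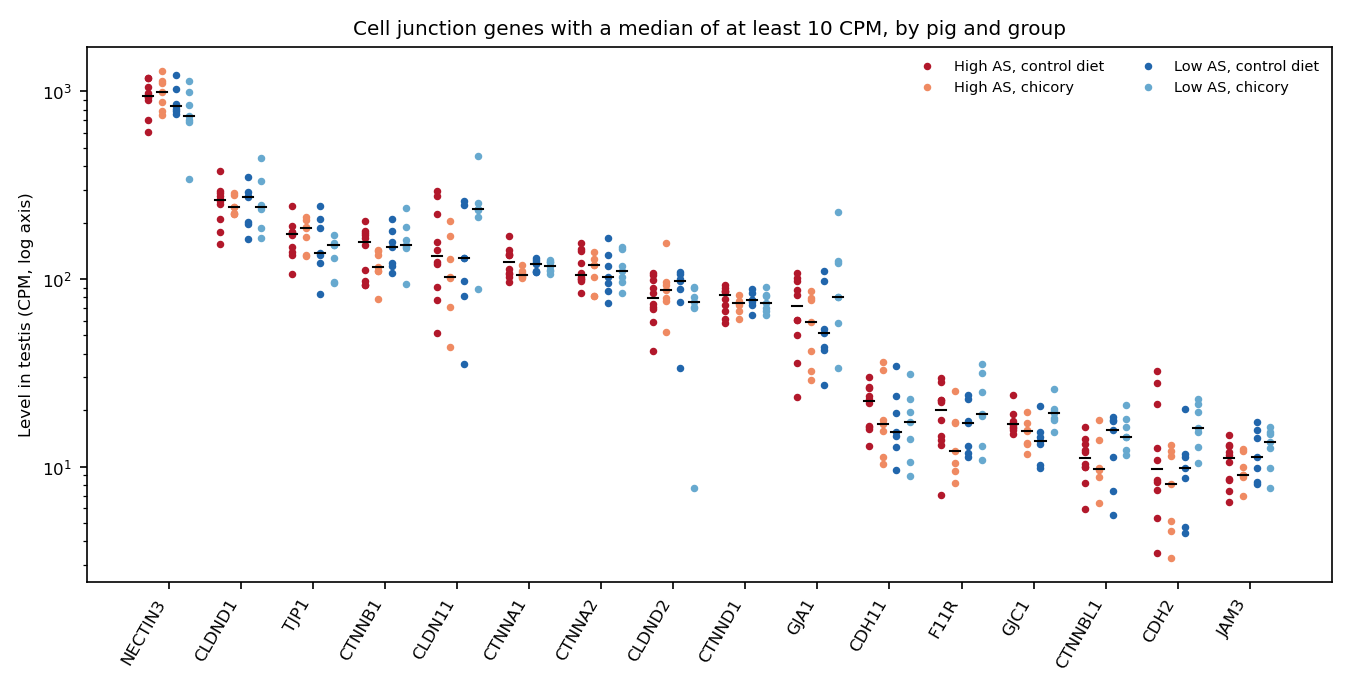
Level of 16 main members in CPM on a log axis. Each point is 1 pig, the 4 colours are the 31 pigs with an AS group, by AS and diet, and black bars are group medians. Groups overlap for every gene shown, and the lowest CLDND2 point, 7.66 CPM, is Low AS chicory replicate 1.

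Among the tight junction genes with a median of at least 10 CPM, CLDN11 varied most. It ranged from 35.3 to 450 CPM over the 32 pigs, with a median of 136 CPM and a 12.8-fold span between the extremes. In High AS pigs on control diet it had 51.4, 133 and 296 CPM (lowest, median and highest), and in High AS pigs on chicory 43.4, 102 and 204 CPM. Low AS pigs on control diet had 35.3, 129 and 262 CPM and those on chicory 88.8, 236 and 450 CPM. All groups overlapped, the Low AS chicory pigs had the highest median, and the highest value was that of Low AS chicory replicate 1.

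The scaffold gene TJP1 (ZO-1) spread less, and lay between 83.5 and 245 CPM with a median of 161 CPM. The junctional adhesion molecules F11R (JAM-A) and JAM3 (JAM-C) had medians of 17.2 and 10.9 CPM, and their spans were 5.01-fold and 2.69-fold. Occludin itself was a low gene in these libraries: OCLN had a median of 1.55 CPM, 0.244 at the lowest and 6.22 in Low AS chicory replicate 1, while the next highest pig had 2.76 CPM. It did not pass the filter on low counts in these comparisons, and no test of it is given. CLDN4 was the claudin with the next highest median, 6.64 CPM, and ranged from 0.286 to 12.7 CPM. CLDN10, CLDN18 and CLDN9 had medians of 0.651, 0.595 and 0.49 CPM, and CLDN6 and CLDN23 were at 0 in most pigs.

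NECTIN3 took the largest share of reads of any member, with a median of 885 CPM. High AS pigs had 611, 944 and 1180 CPM on control diet and 750, 992 and 1280 CPM on chicory. Low AS pigs had 756, 836 and 1220 CPM on control diet and 342, 740 and 1130 CPM on chicory. The pig at 342 CPM was again Low AS chicory replicate 1, and without it the 4 groups still overlapped. CLDND2 had the same low pig, at 7.66 CPM against 33.7 CPM in the next, and otherwise reached 155 CPM with a median of 82 CPM. CLDND1 ran from 153 to 439 CPM with a median of 245 CPM.

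The adherens junction genes differed in their spread. CTNNA1 (alpha-catenin, which links cadherin complexes to actin) and CTNND1 (p120-catenin, which keeps cadherins at the membrane) spanned 1.76-fold and 1.59-fold over 32 pigs, around medians of 112 and 75.8 CPM. CTNNA2, the alpha-catenin best known from neurons, had a median of 109 CPM and a 2.22-fold span. CTNNB1 (beta-catenin, which binds the cadherin tail and also carries Wnt signals) ran from 77.8 to 239 CPM with a median of 144 CPM, a 3.07-fold span. CDH2, N-cadherin, spanned 9.92-fold, from 3.26 to 32.3 CPM with a median of 11.3 CPM. CDH11, a type II cadherin, spanned 4.09-fold, from 8.87 to 36.3 CPM with a median of 17.5 CPM. CDH1, E-cadherin, was near absent at a median of 0.312 CPM, and 9 of 32 pigs had no read of it.

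For the gap junctions, GJA1 (connexin 43) had 23.5, 71.4 and 107 CPM in High AS control pigs and 28.9, 59.1 and 86 CPM in High AS chicory pigs. In Low AS pigs the values were 27.1, 51.7 and 111 CPM on control diet and 33.6, 80.6 and 228 CPM on chicory. The groups overlapped over most of their range, and the pig at 228 CPM was Low AS chicory replicate 1, followed by a pig at 125 CPM. GJC1 (connexin 45) was narrower, from 9.78 to 25.8 CPM. The other connexins were low, with medians of 1.88 CPM for GJA5 (connexin 40), 1.75 CPM for GJA9 and 1.03 CPM for GJB1 (connexin 32).

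The members varied among pigs together with markers of different cells. For each main member the level in log2 CPM was compared with the mean log2 CPM of 10 marker lists, in plain and numbered libraries separately, which gave 340 pairs and 680 tests. Pairs that passed both Pearson's r and Spearman's rho after Benjamini-Hochberg adjustment over the 680 permutation tests numbered 26 of 170 in the 24 plain libraries, 11 positive and 15 negative. In the 8 numbered libraries 1 of 170 passed. Only main members were compared with the lists, so no share over all genes can be set beside these counts. Both levels of a pair come from the same library, shares of reads are bound to each other, and in whole tissue more cells of a type and more RNA per cell cannot be told apart.

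In plain libraries several barrier genes went with the Sertoli cell list, of which 11 of 20 genes had enough reads. CLDN11 gave r = 0.89 and rho = 0.85 (both adjusted permutation p = 4e-04, the smallest that 100000 permutations can give here), and r = 0.87 without the 2 pigs farthest from the marker median. CTNNB1 had r = 0.77 (rho 0.72), CDH2 0.72 (rho 0.72) and GJA1 0.70 (rho 0.65), and each of them passed. Without the 2 farthest pigs r was 0.74, 0.59 and 0.68 for these. A claudin, a catenin, a cadherin and a connexin thus went with the same marker list. CLDN11 was also positive with the endothelial list (r = 0.57, rho 0.62, adjusted permutation p = 0.038 and 0.0241, r = 0.48 without 2 pigs). TJP1 did not follow them: its r with the Sertoli cell list was below 0 in both sets, and the pair that passed in plain libraries was a negative one with the spermatocyte list (r = -0.65, rho -0.60, adjusted permutation p = 0.00929 and 0.0276). In numbered libraries that pair had the opposite sign (r = 0.51, rho 0.43) and did not pass.

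The spermatid lists ran the other way. GJA1 had r = -0.81 with the round spermatid list (rho -0.81, adjusted permutation p = 4e-04 for both, r = -0.76 without 2 pigs) and CTNNB1 r = -0.76 with the elongating spermatid list (rho -0.84, r = -0.79 without 2 pigs). CLDN11 and GJC1 were also negative with both spermatid lists and passed. Opposite signs belonged to NECTIN3 and CLDND2. CLDND2 was higher with elongating spermatid markers (r = 0.95, rho 0.80, adjusted permutation p = 4e-04 and 0.000887), and r was 0.78 without 2 pigs, of which Low AS chicory replicate 1 was one. For NECTIN3 r with round spermatid markers was 0.79 (rho 0.63), and it fell to 0.49 without that pig and High AS control replicate 9. NECTIN3 was negative with the Sertoli cell list (r = -0.73, rho -0.80, r = -0.75 without 2 pigs). It was also negative, and passed, with the endothelial list (r = -0.67, rho -0.78) and the peritubular list (r = -0.65, rho -0.65). CLDND1 went with spermatocyte markers (r = 0.86, rho 0.84, r = 0.80 without 2 pigs), and neither spermatid list passed for it. With the peritubular list CLDND1 was negative and passed (r = -0.65, rho -0.69, r = -0.67 without 2 pigs).

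**Figure D2:**
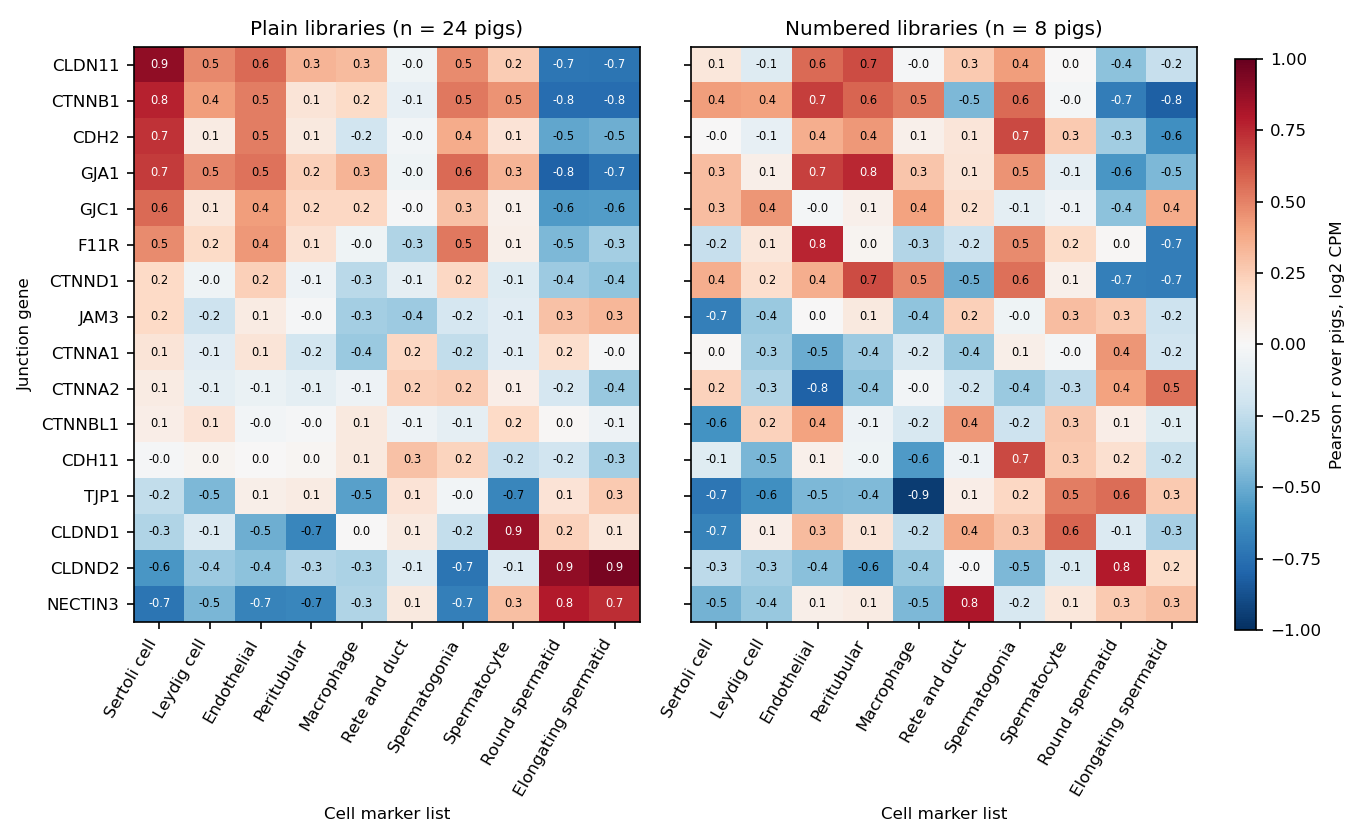
Pearson r over pigs between the log2 CPM of each of 16 main members (rows) and the mean log2 CPM of each marker list (columns), for 24 plain libraries on the left and 8 numbered ones on the right. Rows are ordered by r with the Sertoli cell list in plain libraries, from CLDN11 at 0.89 to NECTIN3 at -0.73.

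The numbered libraries repeated only some of this. CTNNB1 with elongating spermatid markers had r = -0.82 and CLDND2 with round spermatid markers r = 0.79, and neither passed. CLDND2 with the elongating spermatid list, its strongest pair in plain libraries, had only r = 0.18 here. NECTIN3 with round spermatid markers had 0.26. GJA1 with round spermatid markers had -0.58 and CLDND1 with spermatocyte markers 0.58, and none of these passed. For CLDN11 with the Sertoli cell list r was 0.11 over these 8 pigs, and for CDH2 it was 0. CTNNB1 and GJA1 had 0.42 and 0.31 with that list and did not pass either. The mean log2 CPM of the Sertoli cell list, the measure used in these correlations, ran from 3.24 to 4.50 in numbered and from 3.24 to 4.51 in plain libraries, with medians of 3.54 and 3.84. The 4.50 belonged to High AS control replicate 3, and the next highest numbered pig had 3.83. Without that pig and High AS control replicate 2, r for CLDN11 was -0.11. The pair that passed in numbered libraries joined TJP1 with the macrophage list (r = -0.95, rho -0.98, adjusted exact permutation p = 0.0121 and 0.00692, r = -0.84 without 2 pigs), a list of which 4 of 11 genes had enough reads and which summed to at most 29.4 CPM in any AS group.

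**Figure D3:**
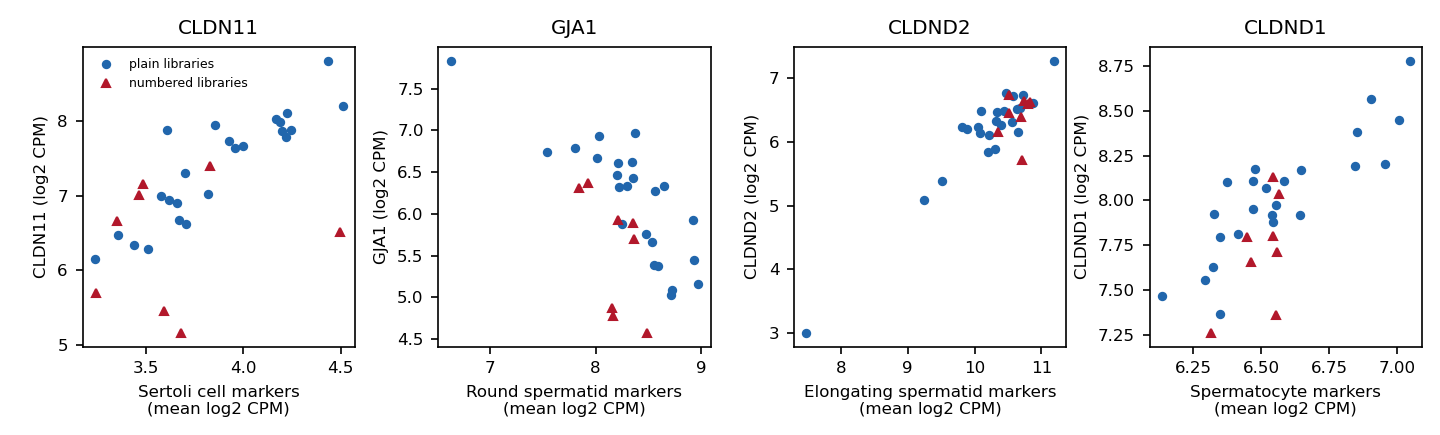
Level of 4 main members against the marker list each went with, both in log2 CPM, with 1 point per pig (blue circles, 24 plain libraries; red triangles, 8 numbered). CLDN11 rises with Sertoli cell markers in plain libraries (r = 0.89) and not in numbered ones (r = 0.11), and the single point at the left of the GJA1 and CLDND2 panels is Low AS chicory replicate 1.

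No junction gene passed the test between High and Low AS testes. With edgeR's quasi-likelihood test 0 of the 28 members that passed the filter on low counts were called at an adjusted p under 0.05, against 0% of the 13025 genes tested, and limma voom and DESeq2 also called 0 members. An unadjusted p under 0.05 was found for 1 member of 28 and for 2.3% of all genes. Estimates of the 28 had a median log2 fold of 0.01, as in all genes (0.01), and 13 of 28 were below 0 where 48.4% of all genes were. A p that misses the threshold does not show that the groups are alike, and the standard errors (SE) give the sizes these pigs could show.

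CLDN11 averaged 140 CPM ± 73.9 over the 17 High AS pigs (SD) and 193 ± 107 over the 14 Low AS pigs (SD). Such means are not adjusted for diet and library set, while the folds given here are. The CLDN11 means lie further apart than its fitted log2 fold of -0.22 (SE 0.27). CTNNB1 had 134 CPM ± 36.8 and 155 ± 39.7, a log2 fold of -0.21 (SE 0.15). For GJA1 the fold was -0.14 (SE 0.26), for CDH2 0.08 (SE 0.25) and for TJP1 0.10 (SE 0.11). Each of the 5 had an adjusted p of 0.988 in edgeR's test, and the SE exceeded the estimate for all but CTNNB1. Leaving out Low AS chicory replicate 1 brought GJA1 to 0.00836, so that its estimate rested on that pig, and CLDN11 to -0.112. Without Low AS control replicate 3 CLDN11 had -0.367.

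The smallest p belonged to JAM2 (JAM-B, which pairs with JAM-C), at 1.34, 4.11 and 9.43 CPM in High AS pigs and 1.5, 3.73 and 6.34 CPM in Low AS pigs. The ranges overlap almost in full, and its log2 fold was 0.46 (SE 0.23, unadjusted p = 0.0497, adjusted p = 0.988). CDH13 (T-cadherin, which lacks the tail that binds catenins) and CDH15 (M-cadherin, known from muscle) had folds of 0.28 (SE 0.18) and 0.38 (SE 0.27). JAM3 and the spliceosome gene CTNNBL1 had -0.18 (SE 0.12) and -0.18 (SE 0.14). None of these passed.

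**Figure D4:**
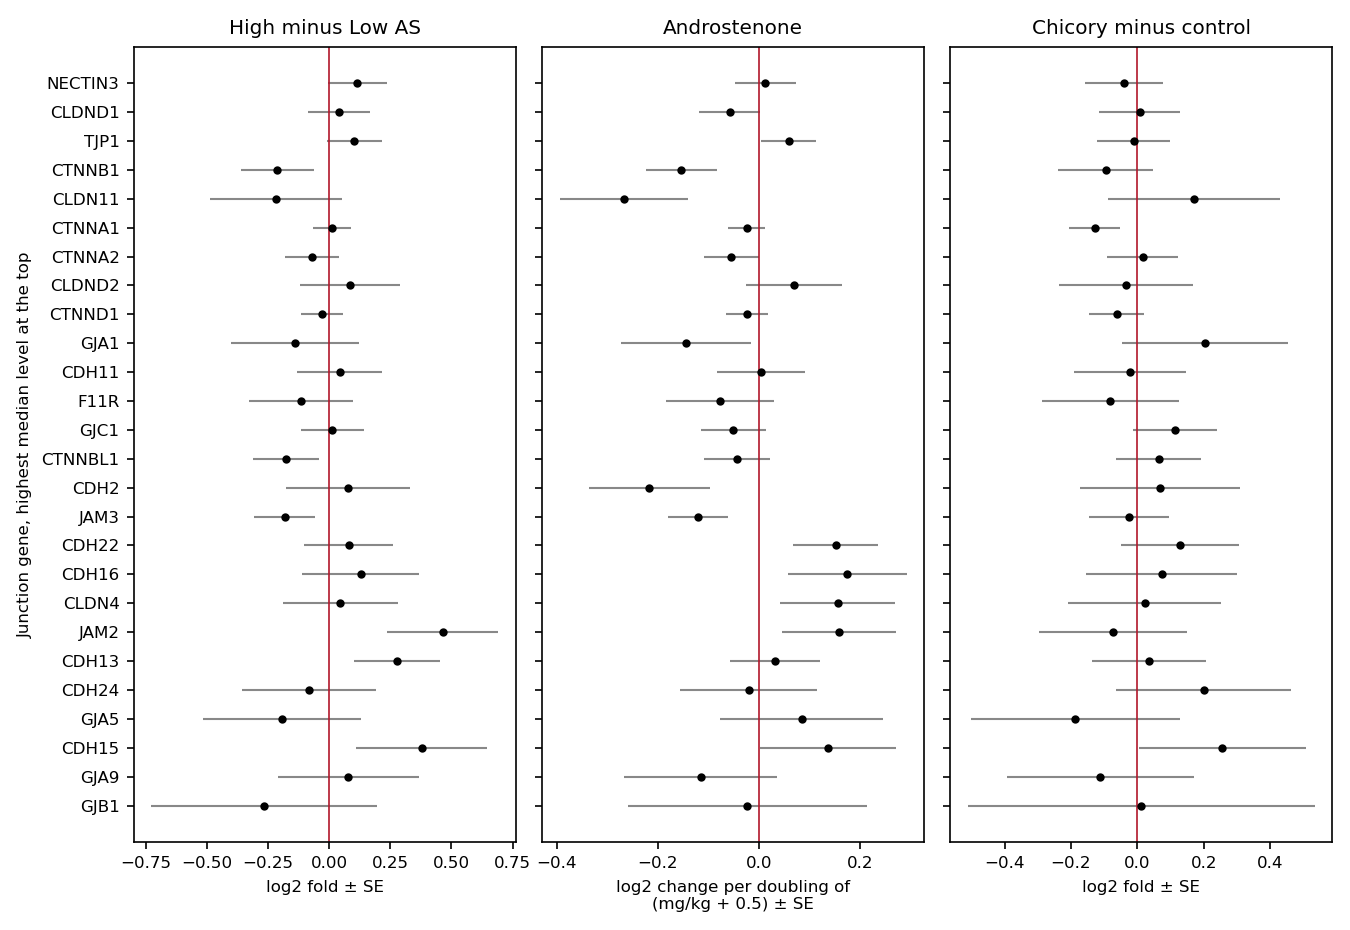
Estimates of edgeR's fits with their SE for 26 members, from left to right High minus Low AS, the change per doubling of androstenone plus 0.5 mg/kg, and chicory minus control diet. CDH17 is left out for its wide error, and members tested only against androstenone are not drawn. No estimate passed its test, and the estimate farthest above 0 in the left panel is that of JAM2, 0.46.

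The androstenone concentration gave the same count. Its slope is a gene's log2 change for each doubling of (androstenone + 0.5 mg/kg), fitted over 31 pigs with diet and library set. Of 30 members tested 0 were called, against 0.0227% of 13199 genes (0.0152% higher and 0.00758% lower), and voom and DESeq2 called 0 members as well. Unadjusted p values under 0.05 were found for 2 members of 30 and for 5.06% of all genes. Both had a negative slope, which was -0.15 (SE 0.07) for CTNNB1 and -0.27 (SE 0.13) for CLDN11, with an adjusted p of 0.852 for each. Slopes were below 0 for 13 of the 17 main members and for 18 of the 30 tested, beside 52.9% of all genes, and their median was -0.05 and -0.02 against -0.01 in all genes.

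Several genes that went with the Sertoli cell list shared that sign. CDH2 had a slope of -0.22 (SE 0.12) and GJA1 of -0.14 (SE 0.13). JAM3, which did not pass with that list (r = 0.20 in plain libraries), had -0.12 (SE 0.06). Positive slopes were estimated for CDH22, a type II cadherin, at 0.15 (SE 0.08), and for TJP1 at 0.06 (SE 0.05). None passed, with adjusted p values of 0.852 to 0.865 in edgeR's test. With sow as a fixed term, which compares litter mates, the slopes of CLDN11 and CTNNB1 were -0.0792 (SE 0.20) and -0.0895 (SE 0.114), and those of CDH22 and TJP1 changed sign. The summed Sertoli cell list ranged from 922 to 4240 CPM in High AS and from 970 to 6130 CPM in Low AS pigs, with medians of 1810 and 2100 CPM. Most of that sum is CLU (clusterin, median 1760 CPM). The list's mean log2 CPM, in which each gene counts alike, had medians of 3.66 (3.24 to 4.51) in High AS and 3.84 (3.36 to 4.43) in Low AS pigs. These medians are not adjusted for library set, which is uneven over AS groups, while the slopes are. The summed list had medians of 2300 CPM in plain and 1030 CPM in numbered libraries. The part of the list in these slopes was not tested.

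No junction gene passed the test for chicory. The edgeR test called 0 of 28 members against 0.00768% of 13025 genes, voom and DESeq2 called 0, and an unadjusted p under 0.05 was found for 0 members and for 0.875% of all genes. The median log2 fold, chicory minus control, was 0.01 in members and in all genes. CTNNA1 had the smallest p, with 101, 110 and 127 CPM on chicory and 96, 120 and 169 CPM on control diet. The chicory range lies inside the control range, and the fold was -0.13 (SE 0.08, unadjusted p = 0.0989, adjusted p = 1). The core genes had 0.17 (SE 0.26) for CLDN11, 0.20 (SE 0.25) for GJA1, 0.07 (SE 0.24) for CDH2, -0.10 (SE 0.14) for CTNNB1 and -0.01 (SE 0.11) for TJP1. CDH15, GJC1, CDH24 and CTNND1 lay at 0.26 (SE 0.25), 0.11 (SE 0.13), 0.20 (SE 0.26) and -0.06 (SE 0.08). Leaving out Low AS chicory replicate 1 took GJA1 to 0.0435, CDH24 to 0.0423, GJC1 to 0.0676 and CTNNB1 to -0.159. CLDN11 had 0.0402 without High AS chicory replicate 5, and CTNNB1 had -0.0443 without High AS chicory replicate 7.

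The AS difference was then compared between the diets through the interaction term, which is the High minus Low AS fold on chicory less that on control diet. Of 28 members 0 were called against 0% of 13025 genes, voom called 0, and an unadjusted p under 0.05 was found for 3 members of 28 and for 3.63% of all genes. Estimates leaned to 1 side: 19 of 28 were below 0, against 52.3% of all genes, and their median was -0.31 where all genes had -0.02. Among the main members 13 of 17 were below 0. The median of the members was -0.22 without High AS control replicate 3 and Low AS chicory replicate 1, and -0.37 in plain libraries alone. With no filter beyond 10 counts it was -0.106 over all 48 members, of which 27 were below 0 (56.2%), and all genes had -0.04. With 1 pig left out the median ran from -0.378 (without Low AS control replicate 1) to -0.176 (without High AS chicory replicate 2). No test of the members as a group was made.

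GJC1 had the smallest p. On control diet it had 15, 16.8 and 24 CPM in High AS and 9.78, 13.7 and 21 CPM in Low AS pigs, and on chicory 11.6, 15.5 and 19.5 CPM in High AS and 15.3, 19.2 and 25.8 CPM in Low AS pigs. High AS was thus the higher group on control diet and the lower on chicory, with overlap in both. Its folds were 0.31 (SE 0.15) and -0.40 (SE 0.18), and the interaction was -0.71 (SE 0.24, unadjusted p = 0.00482, adjusted p = 0.951). It was -0.88 (SE 0.31) in plain libraries alone.

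CLDN11, GJA1, CDH2 and F11R had interactions of -0.93 (SE 0.52), -0.91 (SE 0.49), -0.89 (SE 0.50) and -0.75 (SE 0.41). CTNNB1 had -0.42 (SE 0.29), and TJP1 again stood aside at 0.05 (SE 0.23). GJA1 moved to -0.581 and CLDN11 to -0.699 when Low AS chicory replicate 1 was left out. For the low genes GJA5 and GJB1 the interactions were -1.32 (SE 0.62) and -1.62 (SE 0.84), and single pigs moved both: without High AS control replicate 8 GJA5 had -0.839, and without High AS control replicate 3 GJB1 had -0.26. All adjusted p values were 0.951 in edgeR's test, except 0.981 for TJP1.

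On chicory Sertoli cell markers, among other lists given below, had the same order of medians as CLDN11, GJA1, CDH2 and F11R. The summed Sertoli cell list had medians of 1900 CPM (922 to 4240) in High AS and 1840 CPM (970 to 2690) in Low AS pigs on control diet. On chicory it had 1520 CPM (938 to 2740) in High AS and 2880 CPM (1800 to 6130) in Low AS pigs. The medians of the mean log2 CPM of the list were 3.68 and 3.70 on control diet and 3.59 and 4.18 on chicory, High AS first. Marker medians are not adjusted for library set, while the interactions are. High AS chicory pigs had 3 numbered libraries and Low AS chicory pigs 0. The summed Sertoli cell list had medians of 2300 CPM in plain and 1030 CPM in numbered libraries. GATA1 and KRT18 of that list had a median of 0 CPM. Elongating spermatid markers had medians of 33100 CPM (17600 to 45800) and 34700 CPM (14000 to 44500) on control diet, and of 40600 CPM (29300 to 64500) and 30700 CPM (3590 to 40700) on chicory, High AS first. In mean log2 CPM on chicory, Leydig cell (5.51 and 5.80), spermatocyte (6.48 and 6.54) and spermatogonia markers (3.17 and 3.38) also had the lower median in High AS. The endothelial, peritubular, macrophage, rete and both spermatid lists had the higher median in High AS there. On control diet Leydig cell markers had 6.08 in High AS and 5.74 in Low AS pigs. The part of any list in the interaction was not tested.

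**Figure D5:**
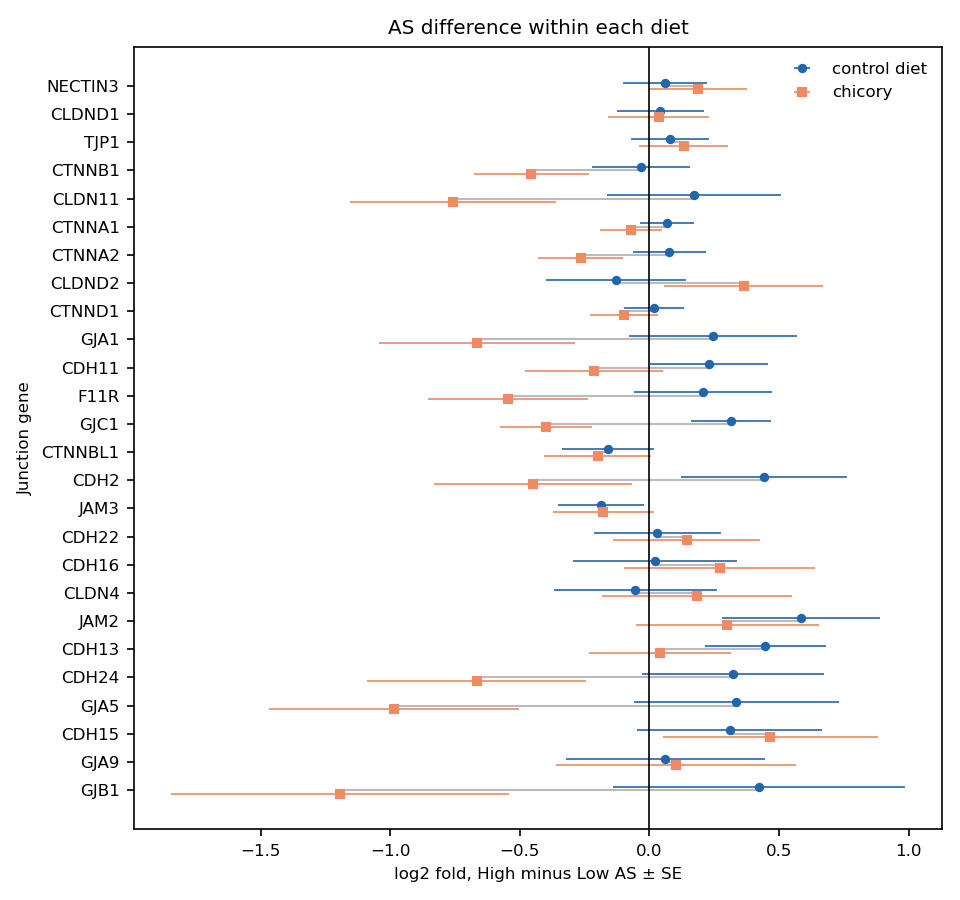
High minus Low AS log2 fold with its SE for 26 members, within control diet (blue circles) and within chicory (orange squares), joined by a grey line. CDH17 is left out for its wide error. For CLDN11, GJA1, F11R, GJC1 and CDH2 the circle lies above 0 and the square below 0, and no interaction passed its test.

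Partners of these genes were taken from 4 lists of other junction genes: 5 adhesion and membrane genes, 18 scaffold and polarity genes, 7 desmosome genes and 22 genes of the ectoplasmic specialization and its actin link passed the filter, 52 in all. None was called for AS, androstenone, diet or the interaction by edgeR, and unadjusted p values under 0.05 were found for 0, 1, 0 and 5 of them, where 2.3%, 5.06%, 0.875% and 3.63% of all genes had one. The smallest p values for AS belonged to CFL1 (cofilin, which severs actin filaments), ZYX (zyxin), CLMP and MAGI3, with log2 folds of -0.20 (SE 0.12), -0.29 (SE 0.22), 0.20 (SE 0.15) and 0.12 (SE 0.09). For androstenone they belonged to MPDZ, ITGB1 (integrin beta-1), LAMB3 and DSG3, with slopes of -0.15 (SE 0.07), -0.21 (SE 0.10), 0.20 (SE 0.12) and -0.67 (SE 0.40), and DSG3 had a median of 0 CPM. For diet they belonged to PARD6G, DSP (desmoplakin), PKP1 and JUP (plakoglobin), with folds of 0.33 (SE 0.18), 0.64 (SE 0.37), 0.49 (SE 0.35) and 0.22 (SE 0.17). In the interaction 19 of the 22 actin-link genes were below 0 with a median of -0.40, beside 52.3% of all genes and a median of -0.02. VCL (vinculin, which ties junctions to actin) had -0.96 (SE 0.35), EPS8 (an actin capping protein) -0.94 (SE 0.42), and the desmosome genes DSG2 (a desmosomal cadherin) and PKP2 (plakophilin) -1.46 (SE 0.59) and -1.20 (SE 0.58), all with an adjusted p of 0.951. Scaffold and polarity genes had a median of -0.04, near that of all genes.

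Library set was the 1 term under which junction genes were called. It separates libraries and not treatments, and 10 of 28 members were called beside 29.1% of all 13025 genes, a share near that of the background. In numbered libraries 5 members were higher, beside 13.4% of all genes, and 5 lower, beside 15.7%. CTNNBL1 had 5.51, 7.77 and 9.98 CPM in numbered and 9.55, 13.9 and 21.2 CPM in plain libraries, a log2 fold of -0.82 (SE 0.16, adjusted p = 0.000253) with a small overlap. CDH2 had a fold of -1.32 (SE 0.30), CLDN11 of -0.89 (SE 0.31), JAM2 of -0.67 (SE 0.25) and JAM3 of -0.55 (SE 0.14). TJP1 lay between 174 and 245 CPM in numbered and between 83.5 and 189 CPM in plain libraries, a fold of 0.51 (SE 0.12, adjusted p = 0.00244). CDH24, CDH22, CDH11 and CTNNA2 were higher by 1.12 (SE 0.27), 0.73 (SE 0.19), 0.70 (SE 0.18) and 0.34 (SE 0.12). GJA1 and CTNNB1 had -0.58 (SE 0.30) and -0.07 (SE 0.17) and were not called. Of the 52 partners 18 were called, led by ILK (integrin-linked kinase) at -0.61 (SE 0.10) and PALS1, a polarity scaffold, at 0.74 (SE 0.13). JAM2 lost its call without High AS control replicate 3 and Low AS chicory replicate 1 (-0.643, adjusted p = 0.0563). Library set, first index and, in part, lane go together here and cannot be told apart.

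CDH17, the cadherin of intestinal and liver epithelium, was the member with the most uneven levels: 11 pigs had 14.1 to 45.5 CPM and the other 21 had 0 to 2.06 CPM. The 11 came from 6 sows, 3 of which also had pigs at the low level, and were 4 of 10 High AS control, 1 of 7 High AS chicory, 2 of 7 Low AS control and 4 of 7 Low AS chicory pigs.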

How the data were processed

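Testis RNA of 32 pigs was sequenced from TruSeq stranded mRNA libraries, per the labels' protocols. The authors deposited 1 table of whole-number read counts per pig and Ensembl gene, not normalized. The submitters' processing notes name HTSeq 0.6.0, STAR, cutadapt 1.8.1, SAMtools 1.3.1 and Trimmomatic 0.33. The build, the annotation, the strand setting and the version of STAR are not given in the sources used here. Without the strand setting it is not known whether reads of overlapping or antisense genes were told apart. Rows of reads given to no gene (37.4% to 50.7% of a library) stayed out of library sizes and tests. The smallest chi-square of 108 library pairs within groups was 7.24 per degree of freedom, so no library was counted as a copy. Symbols came from a table of identifiers and names.

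Counts were filtered with filterByExpr, scaled by TMM and tested with edgeR 4.0.16 (glmQLFit, glmQLFTest, R 4.3.3) over all genes, with Benjamini-Hochberg adjustment at 0.05. Fits held AS group (or log2 of androstenone plus 0.5 mg/kg), diet and library set for 31 pigs. Members that passed the filter are not all members: 28 passed, and 30 in the androstenone fit. SE is the log2 fold over the square root of F. CPM are TMM-scaled. Alternatives used limma 3.58.1 (voom) and DESeq2 1.42.0, other scaling, filters and covariates, library sets alone, sow as a fixed term, and each pig left out. Correlations used 100000 permutations, or all of them for 8 pigs. The edgeR and correlation steps were tested on simulated data.

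Members, gene lists and marker lists were chosen with earlier results of these data known, and the 2 pigs left out together were picked from those results. In each comparison CLDN11, TJP1, GJA1, CDH2 and CTNNB1, the 6 members with the smallest p and every called member were named, except 1 member that is not reported here. In the partner lists the 4 genes with the smallest p were named where none was called, and for library set, where 18 were called, the 2 with the smallest p. The NR5A1 marker stands in both the Sertoli and the Leydig cell list. Replicate numbers follow accession order and pair no pigs.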

Additional observations from a re-analysis of the deposited data

Results flagged for a closer look

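In groups of 7 or 10 pigs, 25 junction genes were examined for a single pig far from the rest by Dixon's criterion. Chance meets it in about 1 of 20 sets where values are normally distributed. It was applied to CPM without a log, for which that rate need not hold, and 9 of 100 sets met it. Low AS chicory replicate 1 gave 3 of the 9: its CLDND2 level was 7.66 CPM where the other 6 pigs had 70.0 to 91.2 CPM, its CDH24 level 7.18 CPM against 1.44 to 3.52 CPM, and its OCLN level 6.22 CPM against 0.951 to 2.02 CPM. The same pig had the lowest sum of elongating spermatid markers, 3590 CPM, and the highest sum of Sertoli cell markers, 6130 CPM, of all 32 pigs. Its library was also the smallest, and CDH24 and OCLN are low genes.

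The other 6 came from different pigs. High AS chicory replicate 7 had CLDND2 at 155 CPM, above 52.1 to 96.2 CPM in its group, and High AS control replicate 5 had GJC1 at 24 CPM, above 15.0 to 19.1 CPM. GJA5 was high in High AS control replicate 8, at 7.24 CPM against 0.849 to 3.19 CPM, and in Low AS control replicate 7, at 3.77 CPM against 1.01 to 2.17 CPM. GJB1 was high in High AS control replicate 3, at 5.01 CPM against 0.102 to 1.74 CPM, and in High AS chicory replicate 4, at 2.42 CPM against 0 to 0.972 CPM.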

How the results depend on the processing

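No alternative called a junction gene for AS, androstenone, diet or the interaction, and the count stayed at 0 with each pig left out in turn. No paired analysis was possible because replicate numbers follow accession order; sow as a fixed term took its place. Estimates that changed sign were not called under any setting, and the cause was not tested. In the AS comparison (log2 fold) CDH2 had -0.0222 with voom, -0.233 without the library set term, -0.146 in plain libraries and -0.146 with sow. GJA1 had 0.0494 with sow and 0.00108 without High AS control replicate 3 and Low AS chicory replicate 1, and TJP1 had -0.115 with sow. In the 8 numbered libraries the AS folds were 0.173 for CLDN11, 0.0676 for CTNNB1, 0.3 for CTNNBL1, 0.465 for GJA1 and -0.174 for TJP1. Androstenone slopes were -0.0704 for CDH22 and -0.0827 for TJP1 with sow, and -0.0462 for TJP1 in numbered libraries. Diet folds were -0.023 (no library set term) and -0.193 (plain libraries) for CDH2, 0.118 for CTNNB1 with sow, 0.0411 for CTNND1 in numbered libraries, and for TJP1 0.00195 with voom, 0.0399 in plain libraries, 0.0154 with carcass weight and 0.00501 over 32 pigs with no AS term. With 1 pig left out, AS folds ran from -0.0622 to 0.171 for CDH2 and -0.255 to 0.00836 for GJA1, diet folds from -0.0705 to 0.163 for CDH2 and -0.0527 to 0.0294 for TJP1, and the TJP1 interaction from -0.0643 to 0.148.

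Over all genes androstenone called 3. The count was 9 with no filter beyond 10 counts, 7 with DESeq2, and 0 with no library set term, with index set in its place, in numbered libraries, with sow, with carcass weight, with ranked concentrations and without the pigs at 0 mg/kg. It ran from 1 to 4 with 1 pig left out. Diet called 1 gene, and 0 with voom, no library set term, plain libraries, numbered libraries and 32 pigs, and 0 to 1 with 1 pig left out. The interaction called 0, and 1 with no filter beyond 10 counts. Depth limits the low members most: of 48 members 28 passed the filter for AS, diet, the interaction and library set, and 30 for androstenone.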
